A study of Mus musculus with 15 samples.

Results

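The genes of the TGF-beta pathway described here are Tgfb1, Tgfbr1, Tgfbr2, Smad2, Smad3, Smad4, Smad7, Ski and Skil. They were listed by gene symbol, with earlier results of these data known. They are 9 of the 55421 genes counted, of which 39155 had a read in at least 1 sample, and all 9 passed the filter on low counts in every comparison. TGF-beta1 is secreted in a latent form, and once freed it binds the type II receptor TGFBR2, which recruits and phosphorylates the type I receptor TGFBR1. TGFBR1 then phosphorylates SMAD2 and SMAD3, which join SMAD4 and enter the nucleus, while SMAD7 blocks the receptors and SKI and SNON (encoded by Skil) repress transcription at SMAD-bound genes. In CD4+ T cells the pathway restrains activation, and it takes part in the differentiation of regulatory T cells and Th17 cells and in the expression of the integrin CD103.

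The study asked how T cells without AMPKα1, the catalytic subunit of the energy sensor AMPK encoded by Prkaa1, adapt during an immune response. Naive CD4+ T cells of young adult C57BL/6 donors were injected into Rag2-/- mice, which have no T or B cells of their own, and the colitis that follows is driven by the donor cells. The donors all carried the floxed alleles (PRKAA1fl/fl). They had no Cre (WT) or carried CD4-Cre (KO), which removes the floxed segment from the CD4+CD8+ thymocyte stage onward, so that the KO cells had lost it before the transfer. At 6 weeks the CD4+ T cells of the spleen and of the mesenteric lymph nodes (mLN) were sorted, and the files hold 4 samples each of WT spleen, KO spleen and KO mLN and 3 of WT mLN. The study left out 1 WT mLN sample for quality. The samples of a group came from separate mice of a single experiment, so the p-values below measure the spread between mice and not between experiments. Untransferred T cells are not among the samples, so each value describes cells that had expanded in a recipient.

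Between 9363940 and 11283439 reads per sample lay on genes. Prkaa1 itself was lower in KO in both organs, with log2 fold changes of -1.33 (SE 0.08) in spleen and -0.95 (SE 0.16) in mLN (adjusted p = 7.63e-05 and 0.0372, edgeR's quasi-likelihood test with Benjamini-Hochberg adjustment), and its groups did not overlap. The call in mLN was lost in each of the 7 fits that left out a sample. Within KO, Prkaa1 was also called higher in mLN than in spleen (edgeR), beside 25.3% of all genes tested. Its mean was 28.0 ± 5.3 counts per 1e6 reads in KO mLN and 20.1 ± 1.2 in KO spleen (SD, n = 4 each). The call between the KO organs was lost in 6 of the 8 fits that left out a sample. The T cell list (Cd3e, Cd3g, Cd4, Trac, Lck and Cd28) summed to between 5779 and 7724 counts per 1e6 reads (CPM) in the 15 samples. Summed CPM lay between 1.57 and 28.4 for 2 CD8 T cell genes, between 3.47 and 13.2 for 3 NK cell genes and between 0 and 5.97 for 5 platelet genes. The stroma and endothelium list summed to between 66.5 and 133 CPM, nearly all of it from Pecam1. The myeloid list (Lyz2, Itgam, Cd68, Csf1r, C1qa and Fcer1g) summed to 51.4 to 355 CPM and the erythroid list to 12.8 to 1420 CPM, so transcripts of both lists were counted in all 4 groups.

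Values per sample are CPM scaled by TMM, a method that corrects library sizes for differences in composition, and levels of different genes are compared only per kb of exon. Per length, the receptor subunit Tgfbr2 had the highest level of the 9 genes in every group, from 51.4 ± 3.36 CPM per kb in WT spleen (SD, n = 4) down to 34.98 ± 1.35 in KO mLN (SD, n = 4). Smad3 came next in spleen, with 20.4 ± 2.7 CPM per kb in WT and 23.1 ± 0.3 in KO (SD, n = 4 each), and in neither group did its samples overlap those of Tgfbr2 above or Ski below. In mLN the samples of Smad3, Skil and Ski overlapped in their order, with means between 11.26 and 16.8 CPM per kb. Tgfbr1, Smad2, Smad4 and Smad7 lay between 5.0 and 8.3 CPM per kb in every group, and their neighbours in the order mostly overlapped. Tgfb1 was at 7.1 ± 0.6 CPM per kb in WT spleen and 10.1 ± 1.0 in KO spleen (SD, n = 4 each), and it was lowest of the 9 in mLN at 2.44 ± 0.70 CPM per kb in WT (SD, n = 3) and 2.35 ± 0.54 CPM per kb in KO (SD, n = 4). Other genes changed place as well, with Smad3 at rank 2 in WT spleen and 4 in WT mLN, Skil at 4 and 2, and Smad7 at 9 and 6.

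**Figure D1:**
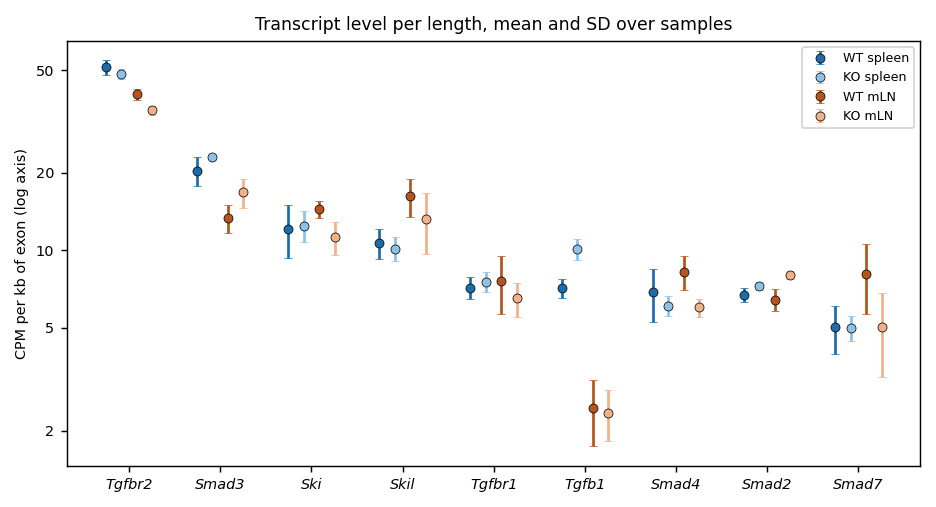
Transcript level of each gene in CPM per kb of exon (log axis), as the mean and SD over samples, for the 4 groups in the order of the WT spleen means. Tgfbr2 is highest in every group, and the Tgfb1 points of both mLN groups lie near 2.4 CPM per kb, under every other gene.

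Within a sample, the transcripts of the receptor chains and of the receptor-activated SMADs were unequal. Tgfbr2 exceeded Tgfbr1 per kb by 7.19 ± 0.34 times in WT spleen, 6.42 ± 0.45 in KO spleen, 5.60 ± 1.65 in WT mLN and 5.47 ± 0.87 in KO mLN (SD, n = 4, and 3 in WT mLN). Smad3 exceeded Smad2 per kb by 3.05 ± 0.42 times in WT spleen and 3.18 ± 0.14 in KO spleen, against 2.07 ± 0.07 in WT mLN and 2.10 ± 0.25 in KO mLN, so the spleen samples, from 2.75 upward, all lay above the mLN samples, which reached 2.40. The ratio of Skil to Ski ranged from 0.728 to 1.08 in WT spleen, 0.742 to 0.968 in KO spleen, 0.900 to 1.31 in WT mLN and 0.707 to 1.67 in KO mLN, and these ranges overlapped. These ratios are descriptions and were not tested.

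Tgfb1, the ligand (chr7:25687002-25705077, plus strand, GRCm38), had the widest range of group means, 2.11 on the log2 scale. Its level was 39.6, 34.7, 36.8 and 32.4 CPM in WT spleen replicates 1 to 4 and 45.8, 49.1, 52.5 and 57.0 CPM in KO spleen. In mLN it was 14.8, 13.8 and 8.24 CPM in WT replicates 1, 2 and 4, and 8.85, 10.4, 13.3 and 14.8 CPM in KO replicates 1 to 4. All spleen samples were above all mLN samples, all KO spleen samples were above all WT spleen samples, and the WT and KO mLN samples overlapped. The raw counts behind these values were 81 to 630 reads.

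**Figure D2:**
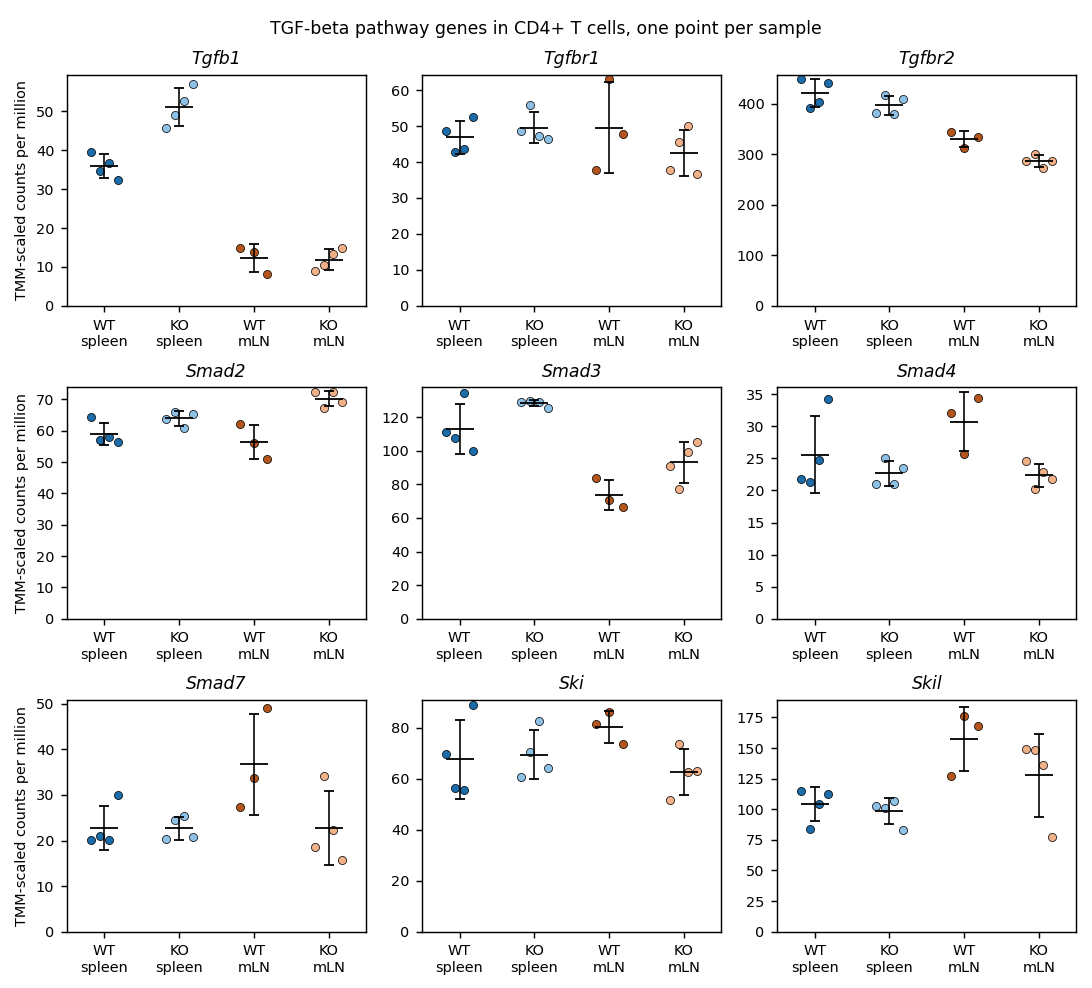
TMM-scaled CPM of the 9 genes, with a point for each sample, a bar at the group mean and whiskers of 1 SD (n = 4, and 3 in WT mLN). Tgfb1 lies between 32.4 and 57.0 CPM in spleen and between 8.24 and 14.8 CPM in mLN, while Tgfbr1, Smad4 and Ski overlap between the organs.

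Tgfbr2, the ligand-binding receptor (chr9:116084293-116175360, minus strand), was lower in mLN than in spleen. It was at 448, 392, 404 and 441 CPM in WT spleen and at 382, 416, 379 and 409 CPM in KO spleen, and these ranges overlapped. In mLN it was at 345, 312 and 333 CPM in WT and at 287, 299, 272 and 287 CPM in KO. No mLN sample reached the lowest spleen sample, and no KO mLN sample reached the lowest WT mLN sample. Tgfbr1, the signalling chain (chr4:47353222-47414931, plus strand), ranged from 36.7 to 63.0 CPM over all samples and overlapped between all groups, and its highest value was that of WT mLN replicate 2.

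Smad3, a receptor-activated SMAD that binds DNA (chr9:63646767-63757994, minus strand), was at 111, 108, 134 and 99.6 CPM in WT spleen and at 129, 129, 129 and 126 CPM in KO spleen. In mLN it was at 83.9, 70.9 and 66.5 CPM in WT and at 90.8, 77.3, 99.3 and 105 CPM in KO. Within each genotype every mLN sample was below every spleen sample. Smad2, its partner (chr18:76241580-76310963, plus strand), had a narrow range, from 56.5 to 64.3 CPM in WT spleen, 60.8 to 66.1 in KO spleen, 51.1 to 62.1 in WT mLN and 67.2 to 72.3 in KO mLN. Smad4, the shared SMAD (chr18:73639009-73703780, minus strand), lay between 20.2 and 34.4 CPM, with its highest values in WT spleen replicate 4 and WT mLN replicate 4.

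Among the inhibitors, Smad7 (chr18:75367529-75395935, plus strand) was at 20.1, 20.9, 20.01 and 29.9 CPM in WT spleen and at 20.3, 24.4, 25.3 and 20.7 CPM in KO spleen. It was at 27.4, 33.6 and 49.0 CPM in WT mLN and at 18.6, 34.2, 22.3 and 15.7 CPM in KO mLN, so the mLN samples of both genotypes were spread widely and overlapped. Skil (chr3:31095058-31122577, plus strand) was at 115, 84.2, 104 and 113 CPM in WT spleen and at 102, 101, 107 and 83.3 CPM in KO spleen. In mLN it was at 127, 176 and 168 CPM in WT and at 149, 148, 136 and 77.7 CPM in KO, where replicate 4 was below every other sample. Ski (chr4:155154075-155222592, minus strand) ranged from 51.4 to 88.8 CPM, and its highest value was that of WT spleen replicate 4.

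The organs were compared within each genotype to see how the pathway genes differ between T cells of the spleen and of the lymph nodes that drain the gut. In WT cells 4 of the 9 genes passed an adjusted p of 0.05, with 3 lower and 1 higher in mLN, against a background of 20.5% of the 14515 genes tested (9.7% higher and 10.8% lower). Tgfb1 was 2.94-fold lower in mLN (log2 fold change -1.55, SE 0.19, adjusted p = 0.000965), Smad3 was 1.54-fold lower (log2 fold change -0.63, SE 0.12, adjusted p = 0.00746) and Tgfbr2 was 1.28-fold lower (log2 fold change -0.36, SE 0.08, adjusted p = 0.0154). Skil, which encodes a corepressor of SMAD complexes, was 1.505-fold higher (log2 fold change 0.59, SE 0.14, adjusted p = 0.0195, all from edgeR's quasi-likelihood test with Benjamini-Hochberg adjustment). These 4 genes were also those whose WT organ groups did not overlap, where 31.9% of all genes tested had such groups. With a log2 fold change beyond 1 required as well, Tgfb1 alone passed, against 4.98% of genes.

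The Smad7 difference in WT cells was 0.68 on the log2 scale (SE 0.22) with an adjusted p of 0.0557 from edgeR. The same-numbered WT samples of the organs deviated together, and with the number as a block Smad7 passed as well (log2 fold change 0.61, adjusted p = 0.00464), which made 5 genes. Without WT mLN replicate 2 the calls were 2, Tgfb1 and Smad3, since Tgfbr2 (adjusted p = 0.056) and Skil (adjusted p = 0.0715) missed the threshold in edgeR. Skil also missed it without WT mLN replicate 4 (adjusted p = 0.0621), and without WT spleen replicate 4 both Smad7 and Ski were added (adjusted p = 0.0237 and 0.0438, edgeR), while Smad7 was added without WT mLN replicate 1 (adjusted p = 0.031, edgeR). The log2 differences of Tgfbr1 (0.07, SE 0.17), Smad2 (-0.07, SE 0.09), Smad4 (0.25, SE 0.19) and Ski (0.24, SE 0.16) did not pass.

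In KO cells 3 of the 9 genes passed, all lower in mLN, against a background of 25.3% of 14240 genes (11.4% higher and 13.9% lower). Tgfb1 was 4.37-fold lower (log2 fold change -2.13, SE 0.16, adjusted p = 6.09e-06), Tgfbr2 was 1.40-fold lower (log2 fold change -0.49, SE 0.06, adjusted p = 0.000171) and Smad3 was 1.40-fold lower (log2 fold change -0.48, SE 0.09, adjusted p = 0.00293, edgeR's quasi-likelihood test with Benjamini-Hochberg adjustment). These 3 calls held in each of the 8 fits that left out a sample. Skil differed by 0.36 on the log2 scale (SE 0.18, adjusted p = 0.169, edgeR), and without KO mLN replicate 4, its lowest sample, it was higher in mLN by 0.54 (adjusted p = 0.00258, edgeR). The KO organ groups of Tgfb1, Tgfbr2, Smad3 and Smad2 did not overlap, as was the case for 28.8% of genes, and with a log2 fold change beyond 1 required, Tgfb1 alone passed, against 5.36% of genes. Smad2, higher in each KO mLN sample, differed by 0.12 (SE 0.07) and did not pass.

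**Figure D3:**
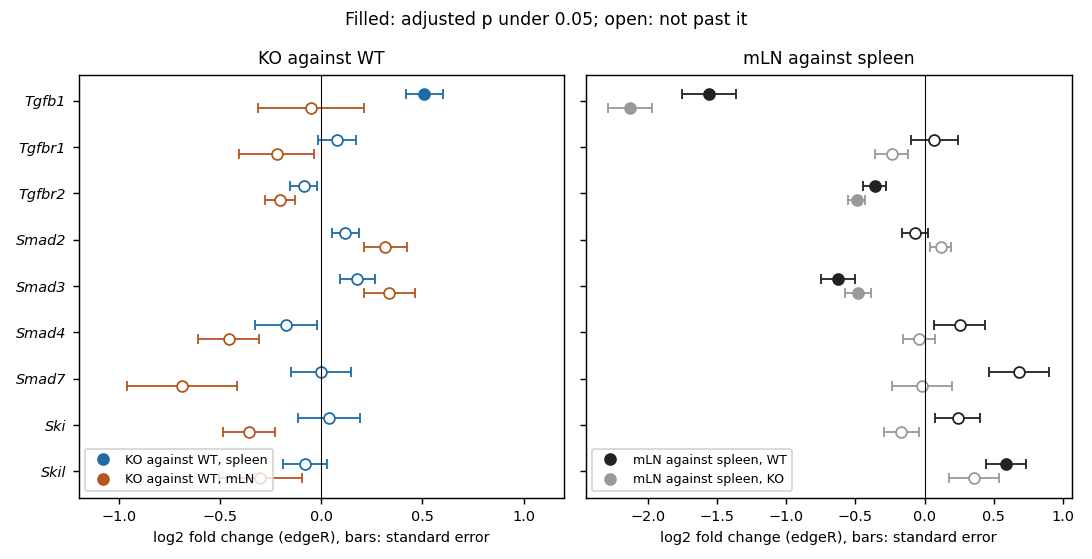
Log2 fold change of each gene with its SE, KO against WT in spleen and mLN (left) and mLN against spleen in WT and KO (right), with filled points past an adjusted p of 0.05. Tgfb1, Tgfbr2 and Smad3 are filled on the right in both genotypes, Skil in WT, and on the left only Tgfb1 in spleen is filled.

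In these bulk samples, fewer cells of a type and less RNA per cell cannot be told apart. Beside the organ difference of Tgfb1, the platelet list summed to between 3.16 and 5.79 CPM in WT spleen and 3.20 and 5.97 in KO spleen, against 1.25 to 2.34 in WT mLN and 0 to 2.14 in KO mLN, and its Gp1bb had no read in any sample. The myeloid list summed to between 122 and 220 CPM in WT spleen and 130 and 355 in KO spleen, against 51.4 to 224 in WT mLN and 83.3 to 99.0 in KO mLN. Against spleen, 3 of its 5 tested genes were called lower in KO mLN and 0 of 6 in WT mLN (edgeR). Over all genes tested, 13.9% were called lower in KO mLN and 10.8% in WT mLN. The CD8 T cell list (Cd8a and Cd8b1) summed to between 2.58 and 4.97 CPM in WT spleen and 7.33 and 11.5 in WT mLN, and to between 1.57 and 4.43 in KO spleen and 19.6 and 28.4 in KO mLN. The part of these lists in the organ differences was not tested.

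The sequence before the transcription start is given for the 3 genes that were lower in mLN in both genotypes. Each window holds the 250 bases before the RefSeq start on GRCm38, read 5′ to 3′ on the strand of the gene, at chr7:25686752-25687001 for Tgfb1 (plus strand), chr9:116175364-116175613 for Tgfbr2 (minus strand) and chr9:63757995-63758244 for Smad3 (minus strand). They were searched on both strands for CAGAC, a form of the SMAD-binding element, and for TGACTCA, the AP-1 site, which do not overlap each other, and matches are in capitals.
Tgfb1: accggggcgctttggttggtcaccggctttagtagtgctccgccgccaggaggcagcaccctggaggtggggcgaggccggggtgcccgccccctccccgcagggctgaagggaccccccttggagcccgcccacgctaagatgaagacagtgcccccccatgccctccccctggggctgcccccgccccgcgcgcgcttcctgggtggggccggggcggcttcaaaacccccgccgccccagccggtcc
Tgfbr2: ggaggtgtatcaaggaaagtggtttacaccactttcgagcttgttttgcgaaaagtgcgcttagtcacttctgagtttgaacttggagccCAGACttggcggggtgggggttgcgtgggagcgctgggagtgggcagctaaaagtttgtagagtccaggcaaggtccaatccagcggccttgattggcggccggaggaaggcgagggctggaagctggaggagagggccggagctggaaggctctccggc
Smad3: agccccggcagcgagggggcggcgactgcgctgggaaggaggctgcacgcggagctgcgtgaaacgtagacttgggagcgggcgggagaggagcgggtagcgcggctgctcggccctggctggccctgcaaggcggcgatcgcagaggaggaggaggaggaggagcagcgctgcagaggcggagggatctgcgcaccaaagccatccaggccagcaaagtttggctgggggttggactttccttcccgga
CAGAC occurred 1 time in the Tgfbr2 window and 0 times in the other two, and TGACTCA in none. Of all 32851 windows of this length, 42.2% held CAGAC and 4.46% held TGACTCA. The windows of Tgfb1 and Smad3 were 75.2% and 69.2% G and C, and that of Tgfbr2 was 58.4%.

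KO was compared with WT within each organ to see whether AMPKα1 loss goes with a change in these genes. In spleen 1 of the 9 genes passed, Tgfb1, which was higher in KO, against a background of 1.3% of 14254 genes (0.547% higher and 0.751% lower). It was 1.42-fold higher (log2 fold change 0.51, SE 0.09, adjusted p = 0.0391, edgeR's quasi-likelihood test with Benjamini-Hochberg adjustment), in 4 of 4 KO samples against all WT samples, and 12% of all genes had groups that did not overlap. The call was kept by 1 of the 8 fits that left out a sample, the one without WT spleen replicate 3, while the log2 difference in these fits stayed between 0.45 and 0.56 and the adjusted p between 0.0372 and 0.11 (edgeR). The call was also lost in the fit of all 15 samples (adjusted p = 0.163, edgeR), and no gene passed with a log2 fold change beyond 1 required, against 0.449% of genes. The other 8 genes differed by between -0.18 and 0.18 on the log2 scale, with SEs of 0.07 to 0.15. Of these, Smad4, Smad7 and Ski moved by more than their SE without WT spleen replicate 4, to 0.00, 0.16 and 0.20, and Smad3 without WT spleen replicate 3, to 0.27, and none passed.

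Beside the Tgfb1 difference in spleen, 5 of the 6 myeloid genes had higher means in KO and none passed in edgeR, while 3 had an unadjusted p under 0.05, against 20.5% of all genes. These 3 were C1qa, with 2.17 ± 0.89 CPM in WT and 7.88 ± 6.38 in KO, Cd68, with 9.74 ± 1.5 and 15.3 ± 3.6 CPM, and Csf1r, with 18.7 ± 4.8 and 34.7 ± 14.1 CPM (SD, n = 4 each). Fcer1g was at 13.1 ± 4.9 CPM in WT and 20.6 ± 8.6 in KO, Lyz2 at 110 ± 34 and 116 ± 74, and Itgam at 1.84 ± 1.22 and 1.31 ± 0.71 CPM (SD, n = 4 each). The erythroid list summed to between 64.9 and 1420 CPM in WT spleen and between 28.6 and 76.8 CPM in KO spleen. The part of these in the difference was not tested.

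In mLN none of the 9 genes passed in edgeR or DESeq2, where 0.641% of 14359 genes passed in edgeR (0.348% higher and 0.292% lower, and 0.327% with a log2 fold change beyond 1). At an unadjusted p of 0.05, 6 of the 9 passed, against 15.7% of all genes. They were Smad2 (log2 fold change 0.32, SE 0.10) and Smad3 (0.34, SE 0.13), which had higher means in KO, and Tgfbr2 (-0.20, SE 0.08), Smad4 (-0.46, SE 0.15), Ski (-0.36, SE 0.13) and Smad7 (-0.69, SE 0.27), which had lower ones. Their adjusted p lay between 0.187 and 0.256 in edgeR. All KO mLN samples were above all WT mLN samples for Smad2 and below them for Tgfbr2 and Smad4, where 14% of genes had groups that did not overlap. The median log2 difference of the 9 genes was -0.22, against 0.00 over all genes tested, while in spleen it was 0.04, against 0.00. Smad7 passed when no filter on low counts was used (adjusted p = 0.00787, edgeR) and Smad2 passed in the edgeR fit of all 15 samples (adjusted p = 0.0472). These fits called more of all genes, 913 of 33681 without the filter and 500 of 15438 in the fit of all 15 samples.

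Beside these mLN values, some markers of other cell types also differed between the genotypes. The CD8 T cell list summed to between 7.33 and 11.5 CPM in WT mLN and 19.6 and 28.4 in KO mLN, without overlap. This gap lay in Cd8a (log2 fold change 1.93, SE 0.60), whose mean went from 4.85 CPM for WT to 18.6 for KO. Cd8b1 did not share it (log2 fold change -0.06, SE 0.49), as its mean went from 4.54 to 4.34 CPM. Neither gene was called in edgeR. Pax5, a B cell factor, was called (adjusted p = 0.0372, edgeR), with 0 to 2 reads in WT and 18 to 48 in KO. The NK cell list summed to between 5.96 and 12.4 CPM in WT mLN and 3.47 and 6.99 in KO mLN. Its Klrb1c had 9.47 ± 3.49 (SD, n = 3) and 2.93 ± 1.59 CPM (SD, n = 4, adjusted p = 0.1, edgeR). The other genes of the NK cell list had higher means in KO. Ncr1 was at 0.79 ± 0.51 CPM in WT and 2.03 ± 1.19 in KO, and Klra8 at 0 and 0.21 ± 0.24. The erythroid list summed to between 15.2 and 600.3 CPM in WT mLN, with a median of 22.7. In KO mLN it summed to between 12.8 and 51.4 CPM, with a median of 34.9, so these ranges overlapped. The part of these in the mLN differences was not tested.

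Whether the KO to WT difference itself differed between spleen and mLN was tested with an interaction term over the 15 samples, and 0 of the 9 genes passed, as did 0% of the 15438 genes tested in edgeR. At an unadjusted p of 0.05, 1 of the 9 passed, against 4.22% of all genes. That gene was Tgfb1, whose organ difference was larger in KO by 0.56 on the log2 scale (interaction -0.56, SE 0.25, adjusted p = 0.9998, edgeR). The Smad7 interaction was -0.69 (SE 0.33, adjusted p = 0.9998, edgeR). DESeq2 also called 0 of the 9, and 2 of all genes. Thus the calls of Skil in WT and of Tgfb1 in KO spleen were not shown to be particular to that genotype or organ.

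For the rest of the pathway, 76 genes in 6 lists were examined, of which 63 to 66 had enough reads to test in a given comparison. Between the organs 17 of 65 passed in WT cells (12 higher and 5 lower in mLN) and 19 of 63 in KO cells (8 higher and 11 lower), beside the 20.5% and 25.3% of all genes that passed in these comparisons. Their median log2 difference was 0.09 in WT and -0.03 in KO, against 0.00 and 0.01 over all genes tested. All calls named here are from edgeR's quasi-likelihood test. Of the 17 WT calls 5 held in every alternative fit (Pmepa1, Ep300, Sp1, Itgae and Ctla4), and the other 12 were lost in 1 to 5 of the 7 fits that left out a sample. Of the 19 KO calls 14 held in every alternative fit, and Zfyve9, Tgif1, Tgif2, Ifng and Klf2 did not.

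Among ligands, their activation and co-receptors, Furin, the protease that cleaves the TGF-beta1 precursor, was lower in mLN in both genotypes (log2 fold change -1.62 in each, SE 0.46 in WT and 0.22 in KO). The WT spleen samples of Furin ranged from 365 to 1750 CPM and overlapped those of WT mLN, which lay between 266 and 508 CPM. Lrrc32, the surface anchor of latent TGF-beta on regulatory T cells, was higher in WT mLN (1.54, SE 0.48), a call that DESeq2 did not make, and in KO its difference was 2.29 (SE 0.98, adjusted p = 0.112, edgeR). Itgav, an integrin chain that frees latent TGF-beta, was lower in KO mLN (-0.56, SE 0.09), and its difference in WT was -0.30 (SE 0.11, adjusted p = 0.0744, edgeR). Tgfb2, Ltbp1, Itgb6 and Thbs1 had too few reads to test in edgeR between 2 groups, and Thbs1 alone of them entered the interaction test. DESeq2 called Thbs1, which encodes an activator of latent TGF-beta, lower in mLN in both genotypes, with 5 to 14 reads per sample in WT spleen, 6 to 12 in KO spleen and at most 3 in mLN. It called Ltbp1, a latent TGF-beta binding protein, higher in KO mLN than in KO spleen, with 0 to 20 and 0 to 2 reads. Among other SMADs and anchors, Zfyve9, which brings SMADs to the receptors, was called in KO mLN (-1.28, SE 0.41), and this call was lost in DESeq2, while its difference in WT was -0.97 (SE 0.37, adjusted p = 0.0906, edgeR).

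In the list of inhibitors and ubiquitin enzymes, 4 of 11 passed in each genotype, beside 20.5% of all genes in WT and 25.3% in KO. Pmepa1, a membrane inhibitor that is itself induced by TGF-beta, was higher in WT mLN (log2 fold change 2.03, SE 0.30), with 2.45 ± 0.71 CPM in spleen (SD, n = 4) and 10.1 ± 2.7 CPM in mLN (SD, n = 3). In KO it had 3.35 ± 1.55 CPM in spleen and 7.90 ± 4.12 CPM in mLN (SD, n = 4 each), a log2 difference of 1.21 (SE 0.43, adjusted p = 0.0613, edgeR) that DESeq2 called. Smurf2, a ubiquitin ligase that acts with SMAD7 on the receptors, was higher in mLN (0.93 in WT, SE 0.28, and 0.72 in KO, SE 0.11), as was the corepressor Tgif1 (0.66, SE 0.18, and 0.50, SE 0.15). Rnf111, a ubiquitin ligase that degrades SKI, SNON and SMAD7, was lower (-0.64, SE 0.16, and -0.57, SE 0.10), and so was Tgif2 in KO (-0.53, SE 0.16, against -0.26, SE 0.23, in WT, which did not pass). Of the SMAD partners in the nucleus, the acetyltransferase Ep300 (-0.85 in WT, SE 0.08, and -0.78 in KO, SE 0.09) and the transcription factor Sp1 (-0.81, SE 0.11, and -0.70, SE 0.16) were lower in mLN in both genotypes, while the acetyltransferase Crebbp was higher (0.31, SE 0.08, and 0.27, SE 0.07). Sin3a (-0.38, SE 0.09) and Ctbp1 (0.41, SE 0.09), both parts of corepressor complexes, passed in WT, and Runx1 (-0.57, SE 0.13) passed in KO. Their differences in the other genotype had the same sign and did not pass in edgeR (Sin3a -0.32, SE 0.12, and Ctbp1 0.24, SE 0.12, in KO, and Runx1 -0.52, SE 0.17, in WT), and DESeq2 called that of Runx1. In the TAK1 branch, the SMAD-independent arm, 0 of 8 genes passed in any of the comparisons. At an unadjusted p of 0.05, 3 of the 8 passed for KO against WT in spleen, 2 in mLN and 1 in each organ comparison, against 20.5%, 15.7%, 34.6% (WT) and 37.4% (KO) of all genes. DESeq2 called Mapk14 in spleen for KO against WT and in WT cells between the organs.

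**Figure D4:**
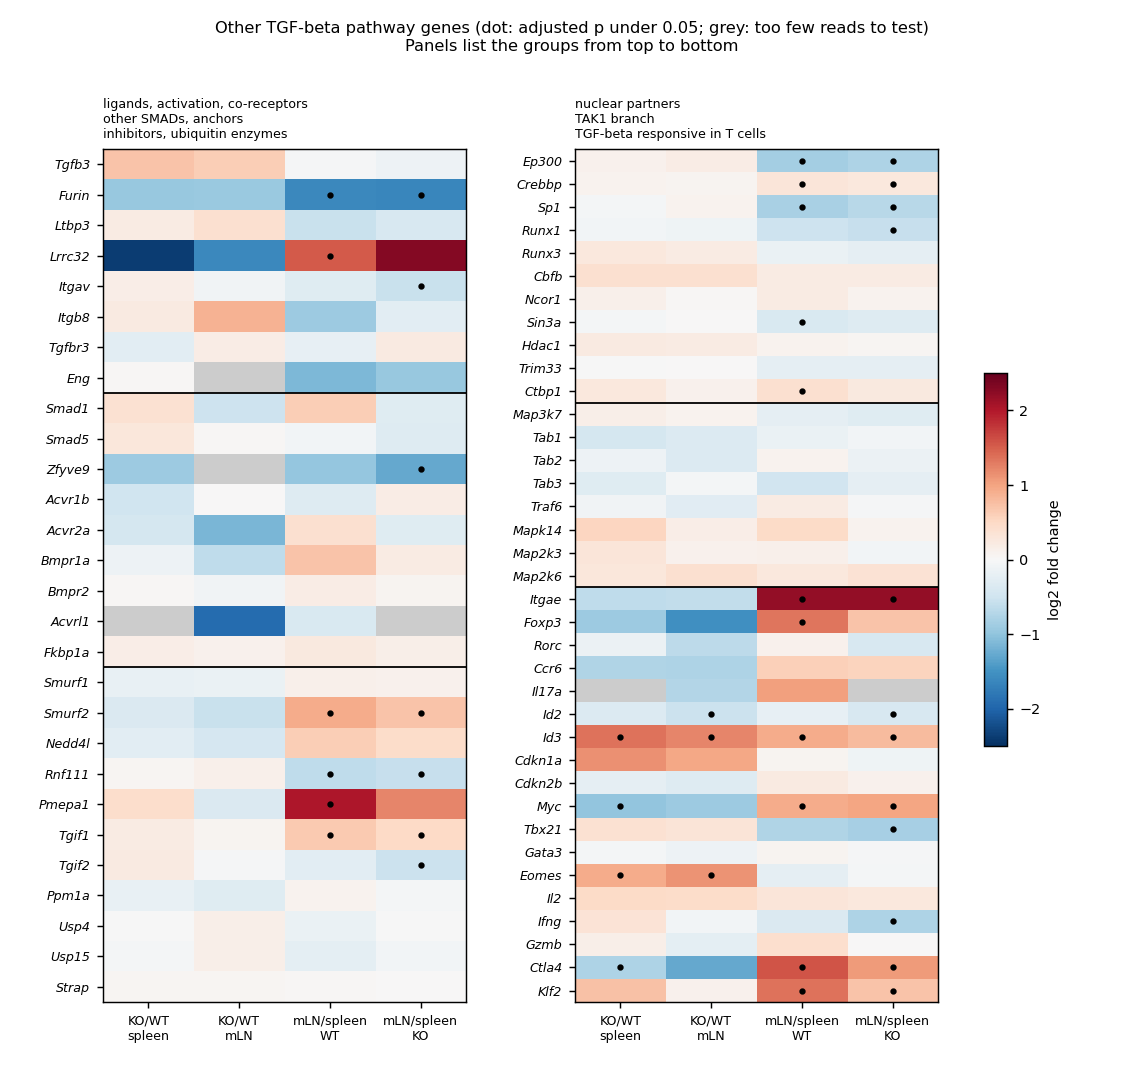
Log2 fold change (colour, red higher and blue lower in KO or in mLN) of the tested genes of the 6 other lists in the 4 comparisons, with a dot where the adjusted p was under 0.05. The dots lie mostly in the organ comparisons, and the 8 genes of the TAK1 branch have none.

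Among 20 genes known to respond to TGF-beta in T cells, 6 of 18 passed as higher in WT mLN and 0 as lower, against 9.7% higher and 10.8% lower over all genes, with a median log2 difference of 0.36. In KO cells 5 of 17 passed as higher and 3 as lower, against 11.4% and 13.9%, with a median of 0.10. Itgae, which encodes the CD103 chain induced by TGF-beta, was higher in mLN by 2.20 in both genotypes (SE 0.45 in WT and 0.40 in KO), from 58.4 ± 29.5 to 269.9 ± 166.9 CPM in WT and from 37.8 ± 13.8 to 177 ± 84 CPM in KO (SD). Ctla4 (1.57, SE 0.25, and 1.07, SE 0.19), Id3 (0.94, SE 0.26, and 0.79, SE 0.19), Myc (0.92, SE 0.23, and 0.98, SE 0.18) and Klf2 (1.35, SE 0.36, and 0.71, SE 0.22) were higher in both, and Foxp3, the factor that defines regulatory T cells, in WT (1.34, SE 0.36, against 0.72, SE 0.41, in KO, which did not pass). The Th1 genes Tbx21 (-0.82, SE 0.12) and Ifng (-0.78, SE 0.22) and the inhibitor of differentiation Id2 (-0.41, SE 0.09) were lower in KO mLN than in KO spleen, and their differences in WT were -0.75 (SE 0.34), -0.37 (SE 0.63) and -0.20 (SE 0.14), which did not pass. The list joins genes that TGF-beta is known to induce, such as Itgae and Foxp3, with genes it is known to repress, such as Myc, Tbx21 and Ifng.

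Between KO and WT, the other pathway genes that passed were all in this list in edgeR, 4 of the 63 tested in spleen and 3 of the 63 tested in mLN, against 1.3% and 0.641% of all genes. The other 5 lists had 0 calls in edgeR. At an unadjusted p of 0.05 they had 10 of 46 genes in spleen and 8 of 45 in mLN, against 20.5% and 15.7% of all genes, while DESeq2 called Fkbp1a, Runx3, Cbfb and Mapk14 in spleen and Acvr2a and Smurf2 in mLN. Id3, an inhibitor of E proteins, was higher in KO in both organs (log2 fold change 1.36, SE 0.23, in spleen and 1.23, SE 0.22, in mLN), with 19.2 ± 6.8 CPM in WT spleen and 49.5 ± 10.9 in KO spleen (SD, n = 4 each). Eomes, a T-box factor repressed by TGF-beta, was also higher in KO in both (0.93, SE 0.17, and 1.13, SE 0.21). Myc (-0.98, SE 0.20) and Ctla4 (-0.78, SE 0.14) were lower in KO spleen, and Id2 (-0.53, SE 0.09) in KO mLN. Each of these 7 calls was lost in 5 to 7 of the fits that left out a sample. The organ and genotype comparisons share samples, so their values stand side by side here and were not compared with each other.

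The genes whose values over the 15 samples were most like those of a member were sought for the 3 members with the largest range of group means, by the root mean square difference of centred log2 CPM over 15438 genes. For Tgfb1 they were Prrc2a and Mbd6, which differed from it by 0.25 each, against 0.97 for the spread of Tgfb1 about its own mean. For Smad3 they were Pygb and Sntb2 (0.10 and 0.11, against 0.32), and for Smad7 they were Tefm and Lrrc8d (0.20 and 0.22, against 0.40).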

How the data were processed

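RNA of sorted CD4+ T cells was sequenced as single-end reads. The authors used STAR 2.6.1a, the GRCm38 genome and GENCODE M23 genes, and deposited the reads per gene of each sample as whole-number counts, without normalization. The submitters' processing notes also name RSEM. Whether the counting used strand is not given in the sources used here, so overlapping and antisense genes are uncertain. Of the members, Smad4 alone overlaps another gene (AC132418.2, with no shared exon bases and at most 21 reads). Between 58.4% and 63.4% of the uniquely aligned reads lay on no gene and were left out.

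GENCODE M21 on this build gave symbols and exon lengths (55240 of 55421 identifiers matched), and start sequences from RefSeq (GRCm38.p6). Counts were tested with edgeR 4.0.16 in R 4.3.3 (low-count filter, TMM, quasi-likelihood test), with p-values adjusted by Benjamini-Hochberg over all genes tested and a threshold of 0.05. SE is the log2 fold change divided by the root of the F statistic. Each organ or genotype was fitted alone, and the interaction over all 15 samples. DESeq2 1.42.0, RLE and library-size scaling, no filter, a minimum of 10 counts per sample, a single fit of the 15 samples, a block for the replicate number, a log2 fold change above 1 and each sample left out were alternatives, and a GC correction was chosen after seeing the data. The scripts were tested on simulated data. Python 3.11.15 and matplotlib 3.10.9 made the summaries and plots.

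Samples were grouped by the labels' genotype and organ. Same-numbered WT samples of the organs deviated together (r of 0.243 to 0.291 in the 3 pairs), so the numbers may pair them, which the labels do not state. In its T cell receptor sequencing the study compared the spleen and mLN of each mouse, so the organs here may share recipients as well. The main tests did not use the numbers and treated the samples of the organs as separate mice. In KO cells between the organs r was 0.026 to 0.259. Between the genotypes it was -0.21 to 0.146 in spleen and -0.053 to 0.0034 in mLN. All 9 members and Prkaa1 are named, of the other lists the genes that passed, and the 2 nearest genes of 3 members. The members and lists were chosen with earlier results of these data known. Pax5 and the single genes of the CD8 T cell and NK cell lists were named after their values were seen. The summed B cell list is not reported here.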

Additional observations from a re-analysis of the deposited data

Results flagged for a closer look

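The samples of each gene were examined in the 3 groups of 4 samples, 27 groups of values in all, for one far from the others, and chance marks about 1 in 20 such groups. In WT spleen, Smad7 was highest in replicate 4 at 29.9 CPM, against 20.9 CPM for the next sample and a median of 20.5 CPM, and the gap was 0.912 of the whole range. In KO spleen, Smad3 was lowest in replicate 4 at 126 CPM, against 129 CPM in the others, and the gap was 0.834 of a range that is itself narrow. The interaction test gave no gene whose KO to WT difference differed between the organs.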

How the results depend on the processing

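Over 8 to 10 alternatives and each sample left out, no called difference of the 9 genes changed direction. The cause of the changes below was not tested. For KO against WT in spleen, the call of Tgfb1 (1 gene) became 0 with the replicate block, in the fit of all 15 samples and with a log2 fold change above 1, and the count was 0 to 1 when a sample was left out. In mLN 0 genes became 1 without a filter on low counts (Smad7) and in the fit of all 15 samples (Smad2). Between the organs, the 4 WT and 3 KO calls became 1 each with a log2 fold change above 1, and were 2 to 6 in WT and 3 to 4 in KO when a sample was left out. In WT, 5 genes were called, Smad7 added, by DESeq2, without a filter, with the replicate block, in the fit of all 15 samples and, chosen after seeing the data, with a GC correction alone or with the block. In KO, 1 of the 8 alternative fits that kept every sample also called Skil, as higher in mLN. The interaction gave 0 of the 9 genes in every fit.

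Apart from the WT organ comparison, same-numbered samples did not deviate together in every pair: the correlations were -0.21 to 0.146 (spleen, KO against WT), -0.053 to 0.0034 (mLN, KO against WT) and 0.026 to 0.259 (KO, between organs). In KO 5 of 8 samples correlated best with their own number. Over all genes, the block changed the calls from 185 to 17, from 92 to 1 and from 3602 to 3814 in these comparisons, and from 2980 to 4351 between the WT organs (4501 with the GC correction). For KO against WT, DESeq2 called 784 genes in spleen and 563 in mLN, the fit without a filter 1422 and 913, and the fit of all 15 samples 85 and 500. The interaction called 0 genes, but 2 in DESeq2, 112 without a filter and 3 with the block. Group means of CPM moved by less than 1 SD under the other scalings. Smad4, Smad7 and Tgfb1 in mLN had the fewest reads, and with 3 to 4 samples a group, differences of the size seen for Smad7 in mLN had SEs of 0.21 to 0.27.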

Other observations

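Of the pathway genes tied to regulatory T cells, Foxp3 ranged from 19.3 to 41.8 CPM in WT spleen, 9.95 to 21.3 in KO spleen, 36.3 to 111 in WT mLN and 7.36 to 43.0 in KO mLN. Its difference between KO and WT was -0.91 (SE 0.27, adjusted p = 0.108) in spleen and -1.52 (SE 0.47, adjusted p = 0.165) in mLN on the log2 scale in edgeR, and DESeq2 called it in spleen. Lrrc32, the latent TGF-beta anchor, ranged from 5.41 to 16.2 CPM in WT spleen, 0 to 4.23 in KO spleen, 18.2 to 62.5 in WT mLN and 0 to 21.2 in KO mLN. Its KO to WT differences did not pass in edgeR (adjusted p = 0.0875 in spleen and 0.372 in mLN), though its spleen groups did not overlap. Ctla4 in mLN differed by -1.27 (SE 0.27, adjusted p = 0.0704, edgeR), with every KO sample below every WT sample, and DESeq2 called it. Foxp3 and Lrrc32 in KO and Ctla4 in mLN were chosen for description after their values were seen.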
